A study of Mus musculus with 12 samples.

Results

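The 8 G protein-coupled receptors described here act on the tone of the vessel wall and were measured in mouse abdominal aorta: the α1-adrenergic receptors Adra1a, Adra1b and Adra1d, the α2A-adrenergic receptor Adra2a, the β1-adrenergic receptor Adrb1, the vasopressin V1a receptor Avpr1a, and the serotonin receptors Htr1b (5-HT1B) and Htr2b (5-HT2B). They were chosen by gene symbol, and each symbol matched 1 Ensembl row, so 8 rows of 55092 in the deposited expression table are described. The samples were 12 abdominal aortas, 1 library per male mouse and 3 mice in each of 4 groups. CFS mice were CCN2fl/fl and received saline, CSS mice were CCN2SMCΔ and received saline, CFA mice were CCN2fl/fl and received Ang II, and CSA mice were CCN2SMCΔ and received Ang II. Ang II, or angiotensin II, is a pressor peptide, and it was infused from osmotic minipumps at 500 ng/kg/min for 7 days. CCN2SMCΔ mice carried floxed alleles of Ccn2, which encodes a matricellular protein, and Myh11-CreERT2, so that the deletion was driven from a smooth muscle promoter and other cells of the wall kept the gene. All groups, the Cre-free CCN2fl/fl controls included, had received 5 doses of tamoxifen from 8 weeks of age, followed by a 2-week washout.

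All 8 receptors sense circulating or nerve-released amines and peptides. The α1 receptors, the V1a receptor and 5-HT2B couple to Gq, which activates phospholipase C and raises calcium, and in vascular smooth muscle this causes contraction. The α2A receptor and 5-HT1B couple to Gi, which lowers cyclic AMP, while β1 couples to Gs, which raises it. In arteries the α1 receptors are best known for sympathetic vasoconstriction, the α2A receptor is found on smooth muscle, endothelium and nerve endings, and β1 is best known as the receptor through which noradrenaline drives the heart.

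The genes lie apart in the GRCm38 genome, except for Adra2a and Adrb1, which share chromosome 19. Adra1a (ENSMUSG00000045875) lies at chr14:66635251-66771168 on the plus strand, Adra1b (ENSMUSG00000050541) at chr11:43774606-43901210 on the minus strand, and Adra1d (ENSMUSG00000027335) at chr2:131545850-131562283 on the minus strand. Adra2a (ENSMUSG00000033717) lies at chr19:54044151-54048982 and Adrb1 (ENSMUSG00000035283) at chr19:56722199-56733113, both on the plus strand. Avpr1a (ENSMUSG00000020123) lies at chr10:122448499-122453452 on the plus strand, Htr1b (ENSMUSG00000049511) at chr9:81628291-81633828 on the minus strand, and Htr2b (ENSMUSG00000026228) at chr1:86099026-86111970 on the minus strand. An annotated neighbour shared 7.74% of the exonic bases of Adra1d, 18.0% of those of Htr1b and 11.8% of those of Htr2b. The sources used here do not say that counting was stranded, so reads in those bases cannot be assigned to either gene.

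The sequence in front of the transcription start is shown for 2 receptors whose mRNA behaved differently below: Htr1b, which was lower in CSA, and Avpr1a, whose CFA and CSA values overlapped. Each window holds the 250 bases before the start, 5′ to 3′ on the strand of the gene, from RefSeq on GRCm38.p6. They are chr9:81633833-81634082 for Htr1b and chr10:122448249-122448498 for Avpr1a. Capitals mark TATAAA and CACCC, the latter also where it reads GGGTG on the other strand.
Htr1b: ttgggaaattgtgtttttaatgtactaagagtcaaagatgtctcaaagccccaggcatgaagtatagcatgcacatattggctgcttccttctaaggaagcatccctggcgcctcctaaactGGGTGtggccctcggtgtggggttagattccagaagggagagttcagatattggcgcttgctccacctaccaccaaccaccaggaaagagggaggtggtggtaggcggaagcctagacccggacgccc
Avpr1a: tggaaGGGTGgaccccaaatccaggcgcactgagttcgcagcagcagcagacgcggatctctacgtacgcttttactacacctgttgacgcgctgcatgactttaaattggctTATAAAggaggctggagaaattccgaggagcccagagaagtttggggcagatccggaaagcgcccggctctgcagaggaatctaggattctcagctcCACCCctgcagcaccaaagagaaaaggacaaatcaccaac

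A RefSeq window was matched for 6 of the 8 genes, all but Adra1a and Adra1d. The annotations disagree on the start of Adra2a, whose RefSeq window lies inside the GENCODE exon and is not shown. The CArG box, the site bound by serum response factor in front of many contractile genes, was searched on both strands and was in the window of 0 of these 6 genes. It was in 1.47% of the 32851 windows of the same length over all genes, so a match was rare in general. TATAAA was in the windows of Adra2a and Avpr1a, against 12.4% of all windows. CACCC, the letters that Krüppel-like factors can bind, was in the windows of 5 genes, all of the 6 but Htr2b, against 52% of all windows. CANNTG, the letters bound by basic helix-loop-helix factors, was in the windows of Adra2a, Avpr1a and Htr2b, against 66.2% of all windows. Letters of CACCC and CANNTG can overlap, and these matches describe the sequence only.

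Expression is given as FPKM, fragments normalised to gene-model length and library size. Comparisons of levels between genes rest on the gene models as well, and Adra2a and Adrb1 came out as whole fragments only at shorter models than those annotated. The fragments recovered from the FPKM steps ranged from 14558580 to 23107802 per library. The fewest were in CSA 03, against 18699832 in CSA 01 and 19132084 in CSA 02. Some genes also stood apart in CSA 03, among them Dcn (707 FPKM, against 289 and 294 in CSA 01 and 02) and Gnas (1.31, against 8.89 and 7.85). In CSA the 9 smooth muscle markers summed to 805-963 FPKM, against 5605-8498 in CFA, and the 10 leukocyte markers summed to 1733-1976 FPKM against 222-439. The 6 endothelial markers summed to 111-139 FPKM in CSA and 215-424 in CFA. Of these, 3 of the 6 were lower by more than 1.5 on the log2 scale with an adjusted p below 0.05 in limma, beside 8.27% of all genes tested. Kdr, of the same list, went the other way, at 8.69, 5.37 and 7.29 FPKM in CSA against 2.45, 3.67 and 5.36 in CFA (0.92 ± 0.39 on the log2 scale, adjusted p = 0.0809). The 6 fibroblast markers summed to 3559-4248 FPKM against 2204-2428, mostly Col1a1 (2561-3262 against 1383-1512). Of these, 0 of the 6 changed by more than 1.5 on the log2 scale, where 17.2% of all genes passed this limit and that on the adjusted p. Lum was at 1.43 ± 0.20 (log2, SE) and Pi16 and Dpt at -1.17 ± 0.25 and -1.13 ± 0.17. No marker of these 4 lists was at 0 in all mice of a group. Ccn2 itself measured 480-1108 FPKM in CFS, 436-640 in CSS, 564-1105 in CFA and 255-399 in CSA. Its log2 fold change was -1.41 ± 0.34 (SE, adjusted p = 0.0062) in CSA vs CFA and -0.40 ± 0.34 (adjusted p = 1) in CSS vs CFS, where the values overlapped. In bulk tissue, fewer cells of a type and less receptor mRNA per cell cannot be told apart.

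**Figure D1:**
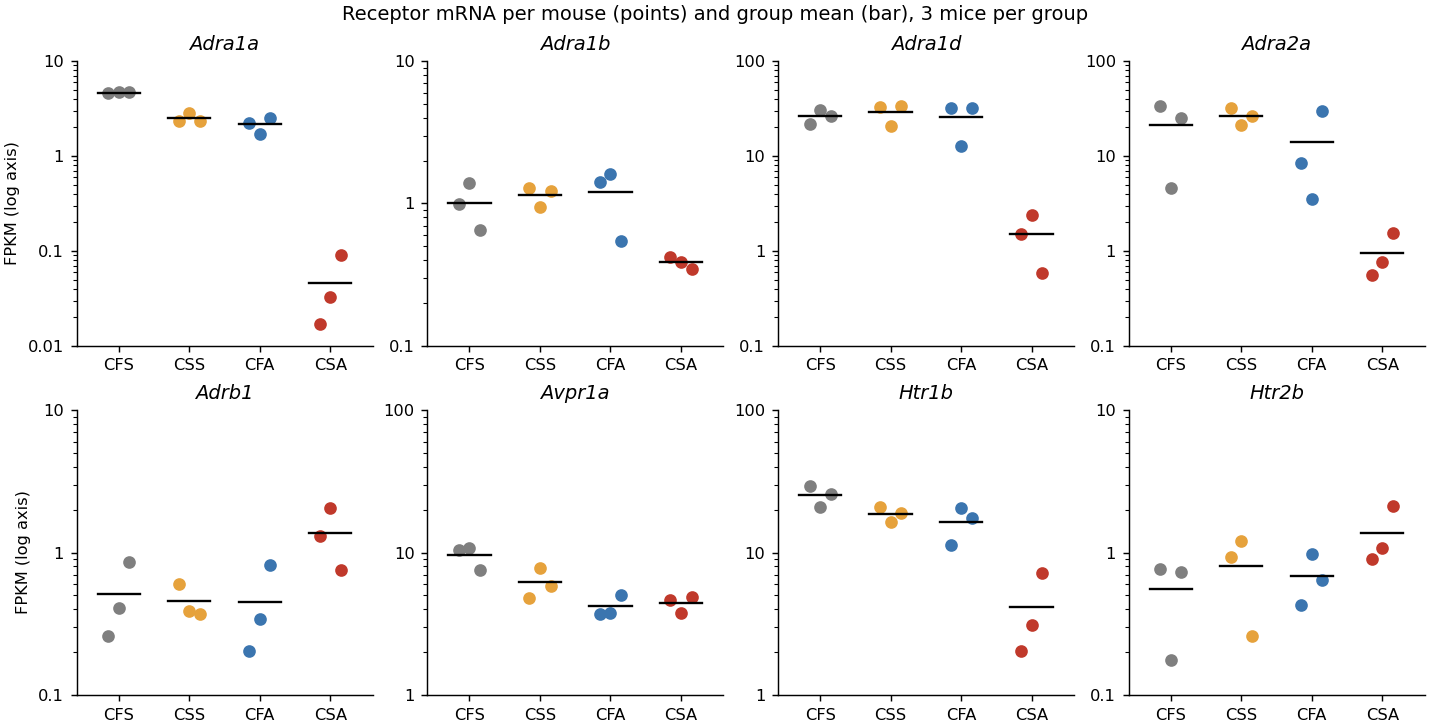
FPKM (log axis, scaled for each gene) of the 8 receptors in each mouse (points) with the group mean (bar), 3 mice in each of CFS, CSS, CFA and CSA. Adra1a, Adra1d, Adra2a, Htr1b and Adra1b were lower in all 3 CSA mice than in every mouse of the other groups, while Adrb1 and Htr2b were highest on average in CSA.

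In the saline-treated control aorta (CFS), 3 receptors led the set. Adra1d averaged 26.5 ± 4.45 FPKM (SD, n = 3), Htr1b 25.4 ± 4.15 and Adra2a 21.0 ± 14.7, and the ranges of these 3 overlapped. Avpr1a followed at 9.57 ± 1.75 FPKM, within the range of Adra2a but below all values of Htr1b and Adra1d, and Adra1a came next at 4.66 ± 0.0439, below every Avpr1a value. The remaining 3 were near the lower end of what the libraries measured, with Adra1b at 1.01 ± 0.370 FPKM, Htr2b at 0.557 ± 0.331 and Adrb1 at 0.510 ± 0.313, and their ranges overlapped. The order in CFA was the same, and in CSS only Htr1b and Adra2a changed places. In CSA the order was different: Avpr1a (4.42 ± 0.585) and Htr1b (4.12 ± 2.73) came first with overlapping ranges, then Adra1d, Adrb1, Htr2b and Adra2a, whose neighbours overlapped, and last Adra1b and Adra1a, each separated from the gene before it.

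The genotypes were compared under Ang II (CSA vs CFA), which addresses the effect of the genotype in Ang II-infused mice. The deletion of Ccn2 and the presence of Myh11-CreERT2 cannot be told apart, since the controls were Cre-free. Adra1a, Adra1d, Adra2a and Htr1b were called lower in CSA, and no receptor was called higher. A call required a Benjamini-Hochberg adjusted p below 0.05 from limma and a log2 fold change beyond 1.5. Of 14676 genes tested, 17.2% were called in this comparison and 8.27% were called lower, beside 4 of the 7 receptors that passed the filter on low values. All 3 CSA values lay below all 3 CFA values for 5 of the 8 receptors, beside 25.1% of all genes. Over those 7 the median was -2.12 (log2), against -0.04 over all genes. The receptors were chosen with earlier results of these data known, so these shares and medians describe the set and do not test it. Adrb1 did not reach 1 FPKM in 3 libraries and was not tested.

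Adra1d encodes the α1D receptor, the subtype to which contraction of the mouse aorta is usually ascribed. It measured 32.1, 12.8 and 32.0 FPKM in the CFA mice 71, 72 and 74, and 1.5, 2.38 and 0.584 in the CSA mice 01, 02 and 03. Every CSA value was below every value of the other 3 groups. The group means differed 17.2-fold, and the log2 fold change was -4.09 ± 0.47 (SE, adjusted p = 5.37e-05).

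Adra1a, the α1A receptor, is the main α1 subtype of many resistance arteries. It was at 2.25, 1.7 and 2.51 FPKM in CFA, and at 0.0169, 0.0324 and 0.0897 in CSA. The CSA values rested on 3, 6 and 12 fragments, 21 in all with an exact Poisson 95% interval of 13-32.1 that covers counting error only, against 315-464 fragments in each CFA mouse. The means differed 46.5-fold, the log2 fold change was -3.96 ± 0.23 (adjusted p = 9.91e-07), and the pseudocount of 0.1 FPKM keeps that value smaller than the ratio of the means. With a pseudocount of 1 it was -1.58, and with limma-voom on the recovered fragments -5.78, and Adra1a was called under both.

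Adra1b, the α1B receptor, was low in all groups. It measured 1.43, 1.62 and 0.544 FPKM in CFA and 0.422, 0.390 and 0.347 in CSA, so that the CSA values were the lowest but CFA 74 lay close to them. The log2 fold change of -1.29 ± 0.40 had an adjusted p of 0.023 and stayed short of the fold limit. Without CFA 74 it was -1.74 (adjusted p = 0.0028) and passed both limits, and over the alternatives its adjusted p ranged from 0.0028 to 0.0969.

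Adra2a, the α2A receptor, restrains adenylyl cyclase and, on nerve endings, noradrenaline release. It varied widely among floxed mice, with 8.47, 3.50 and 29.96 FPKM in CFA, and was at 0.557, 0.757 and 1.53 in CSA. The groups did not overlap in spite of that spread, the means differed 14.7-fold, and the log2 fold change was -3.33 ± 0.81 (adjusted p = 0.0071). Its size turned on single CFA mice: it was -2.51 without CFA 74 and -4.05 without CFA 72, and Adra2a was called in both cases.

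Htr1b, the 5-HT1B receptor, mediates serotonin-induced constriction in several vascular beds and is the target of the triptans. It was at 11.2, 20.5 and 17.5 FPKM in CFA and 2.03, 3.10 and 7.21 in CSA. The groups were separate, with CSA 03 the highest of its group. The means differed 3.98-fold and the log2 fold change was -2.12 ± 0.38 (adjusted p = 0.0011), which was the smallest of the 4 called changes but rested on 195-522 fragments per CSA mouse.

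Avpr1a, the V1a receptor for the pressor hormone vasopressin, was the exception among the abundant receptors. It measured 3.71, 3.78 and 5.05 FPKM in CFA and 4.65, 3.76 and 4.86 in CSA, with the values of the groups intermingled. The log2 fold change was 0.09 ± 0.21 (adjusted p = 0.779), with a 95% interval from -0.38 to 0.56, which bounds any change at this sample size.

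Htr2b, the 5-HT2B receptor known for its part in valve fibrosis, was at 0.431, 0.973 and 0.642 FPKM in CFA and 0.901, 1.08 and 2.11 in CSA. The groups overlapped, and the log2 fold change of 0.88 ± 0.60 (adjusted p = 0.271) had an interval from -0.45 to 2.21, so that neither a rise nor the lack of one was shown. Adrb1, the β1 receptor, was at 0.203, 0.341 and 0.814 FPKM in CFA and 1.3, 2.04 and 0.760 in CSA. The ratio of the means was 3.03, but CSA 03 lay below CFA 74 and a two-sided exact permutation test gave p = 0.2, where 0.1 is the smallest that 3 against 3 mice can give. When genes with a mean of at least 0.1 FPKM were tested, its log2 fold change was 1.47 (adjusted p = 0.0459), just short of the fold limit, and with no filter on low values its adjusted p was 0.0665.

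**Figure D2:**
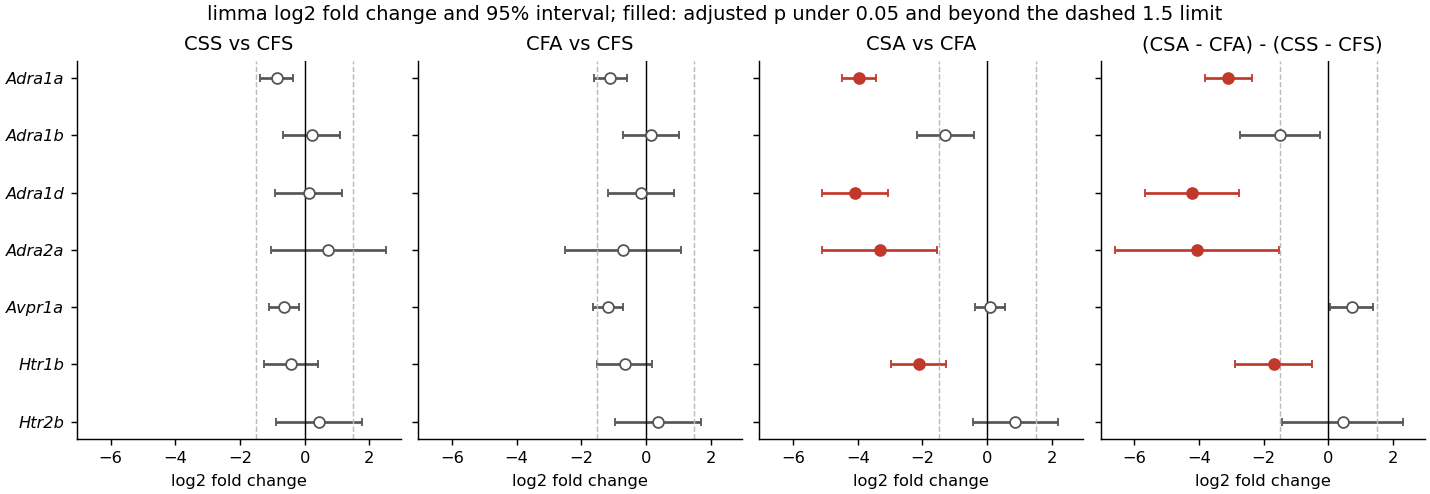
limma log2 fold change with its 95% interval for the 7 receptors tested, in CSS vs CFS, CFA vs CFS, CSA vs CFA and the difference of the genotype effects between Ang II and saline. Dashed lines mark the fold limit of 1.5 and filled points passed both limits. Filled points occur for Adra1a, Adra1d, Adra2a and Htr1b, and in the panels that include CSA.

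Under saline (CSS vs CFS), which compares the genotypes without Ang II, 0 of the 7 receptors were called by limma, beside 0.0136% of all genes. At an unadjusted p below 0.05, 2 of the 7 were lower, Adra1a and Avpr1a, where 6.3% of all genes passed. Adra1a was at 4.61, 4.69 and 4.69 FPKM in CFS and at 2.36, 2.86 and 2.33 in CSS, so the 2 groups were clearly apart. Its log2 fold change of -0.87 ± 0.23 had an adjusted p of 0.398, which ranged from 0.0429 to 1 over the alternatives, and was lowest when only these 2 groups were fitted. Adra1a and Htr1b were the members whose groups did not overlap, both lower in CSS, beside 9.31% of all genes.

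The other values of the saline pair lay nearer to each other. Htr1b was at 29.3, 21.0 and 25.9 FPKM in CFS and 20.8, 16.4 and 19.1 in CSS (log2 fold change -0.43 ± 0.38, adjusted p = 1). Avpr1a was at 10.5, 10.7 and 7.56 FPKM in CFS and 4.80, 7.84 and 5.87 in CSS, with CSS 55 above CFS 70, and its log2 fold change was -0.64 ± 0.21 (adjusted p = 0.601). Adra1d, at 22.0, 30.9 and 26.7 FPKM in CFS and 33.2, 20.6 and 33.7 in CSS, had a log2 fold change of 0.12 ± 0.47 with an interval from -0.91 to 1.15. Adra2a, at 33.3, 4.66 and 25.05 FPKM in CFS and 32.2, 21.1 and 26.7 in CSS, had 1 control, CFS 69, far below the rest (log2 fold change 0.73 ± 0.81, adjusted p = 1).

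The response of the floxed control to Ang II (CFA vs CFS) was likewise without a called receptor, 0 of 7 beside 0.0273% of all genes. At an unadjusted p below 0.05 in limma, Avpr1a and Adra1a were lower, where 9.42% of all genes passed. Avpr1a fell short of the call at a log2 fold change of -1.17 ± 0.21 (adjusted p = 0.0969), with a mean of 9.57 FPKM in CFS and 4.18 in CFA and no overlap. Adra1a was at -1.10 ± 0.23 (adjusted p = 0.113), and Htr1b at -0.66 ± 0.38 (adjusted p = 0.667). These 3 were the members whose CFA values all lay below the CFS values, beside 10.8% of all genes. The adjusted p of Avpr1a ranged from 0.028, without CFA 74, to 0.317, and that of Adra1a from 0.0406, without CSA 03, to 0.352, and neither reached the fold limit in any alternative. Adra1d averaged 25.6 ± 11.1 FPKM in CFA, and its values overlapped with those of CFS.

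In CCN2SMCΔ aorta (CSA vs CSS), Ang II was accompanied by lower Adra1a, Adra1d, Adra2a and Htr1b, which are 4 of 7 receptors beside 20.3% of all genes called and 9.36% called lower. This comparison and CSA vs CFA use the same CSA mice, so they are not independent. The log2 fold changes were -4.19 ± 0.23 for Adra1a, -4.36 ± 0.47 for Adra1d, -4.76 ± 0.81 for Adra2a and -2.35 ± 0.38 for Htr1b, with limma adjusted p of 5.06e-07, 2.42e-05, 0.000633 and 0.000456. Adra1b was at -1.35 ± 0.40 (adjusted p = 0.016), below the fold limit, and was called with voom on recovered fragments (-1.54, adjusted p = 0.0257). Avpr1a was at -0.45 ± 0.21 (adjusted p = 0.108) and Htr2b at 0.81 ± 0.60 (adjusted p = 0.297). When a mouse was left out, Avpr1a ranged from -0.61 to -0.27 and Htr2b from 0.24 to 1.04, and neither was called. Adrb1 was at 0.605, 0.390 and 0.369 FPKM in CSS and higher in all 3 CSA mice, the 1 member so placed beside 26.3% of all genes, with p = 0.1 in the exact permutation test. The 5 members with lower, separate CSA values stood beside 29.1% of all genes.

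The genotype effect under Ang II was then set against that under saline in 1 model. The difference was called for the same 4 receptors, beside 15.2% of all genes called and 7.31% called lower. It was -3.09 ± 0.33 (log2, SE) for Adra1a, -4.20 ± 0.66 for Adra1d, -4.06 ± 1.15 for Adra2a and -1.69 ± 0.54 for Htr1b, with limma adjusted p of 1.20e-04, 0.00104, 0.0231 and 0.0396. For Adra1b it was -1.51 ± 0.56 (adjusted p = 0.0713), which became a call without CFA 74 (-1.95, adjusted p = 0.0117), for Avpr1a 0.72 ± 0.30 (adjusted p = 0.103) and for Htr2b 0.44 ± 0.85 (adjusted p = 0.741). The call for Adra1d held in all 19 alternatives, that for Adra1a in 18 and that for Adra2a in 17, while that for Htr1b held in 6. Among these alternatives, dropping the fold limit could not remove a call.

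**Figure D3:**
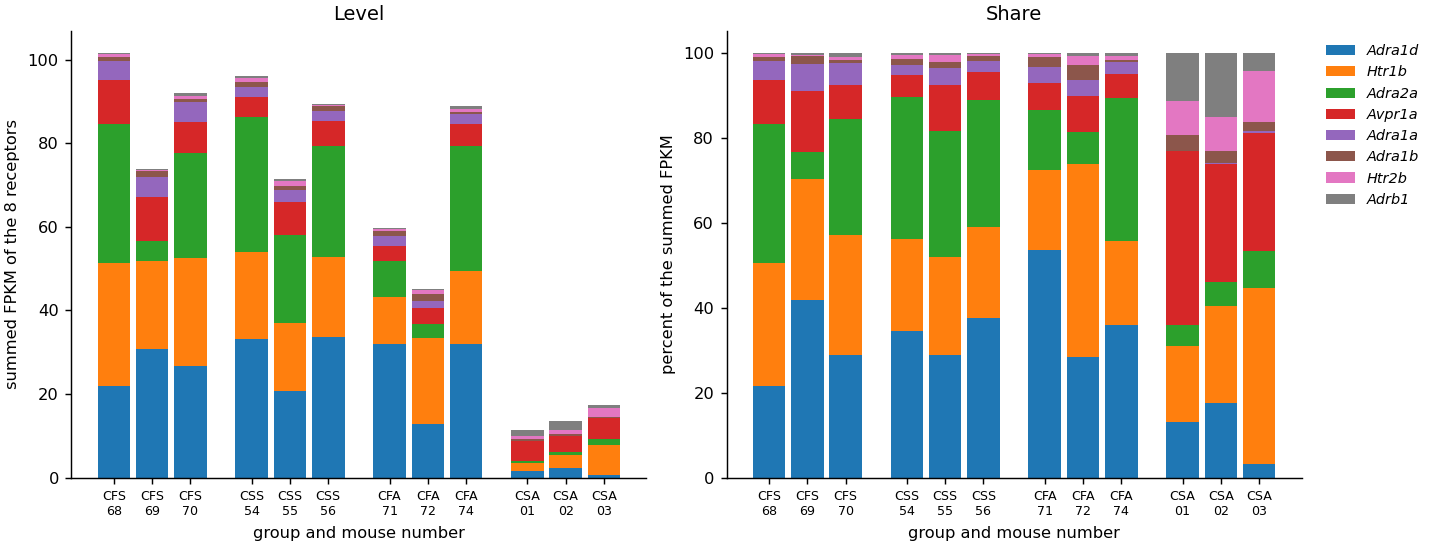
Left, summed FPKM of the 8 receptors in each mouse, stacked by gene. Right, the same as a percent of the sum. The CSA bars reach 11.4-17.5 FPKM against 45.2-89.0 in CFA, and Avpr1a takes a wider share of the CSA bars.

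The summed level of the 8 receptors was 89.2 ± 14.1 FPKM in CFS, 85.7 ± 12.8 in CSS, 64.7 ± 22.3 in CFA and 14.2 ± 3.10 in CSA. The α1 subtypes alone summed to 32.2 ± 4.68 FPKM in CFS, 32.9 ± 7.30 in CSS, 29.0 ± 11.1 in CFA and 1.92 ± 0.893 in CSA. Adra1d made up most of the α1 mRNA in each mouse, 79.7-83.6% in CFS, 84.4-90.5% in CSS, 79.5-91.3% in CFA and 57.2-84.9% in CSA. The share of Adra1a was 12.7-16.7% in CFS and 6.25-11.7% in CSS, which did not overlap. The share of Adra1b, at most 10.01% in any mouse of the other groups, was 13.9-34.0% in CSA. Avpr1a held 5.68-8.35% of the summed receptors in CFA and 27.8-40.8% in CSA, while its own FPKM overlapped between these groups. Htr1b took 18.8-45.3% in CFA and 17.9-41.2% in CSA, with wide overlap. No test was made on shares, which depend on one another.

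The receptors were also set against the smooth muscle of the same library, as log2(FPKM + 0.1) minus the mean of the 9 smooth muscle markers. Of the markers, Tagln shared 67.9% of its exonic bases with annotated neighbours, and Myh11 shared 0%. The part of that overlap in the Tagln values was not tested. These 9 markers were all called lower in CSA than in CFA (median -3.12), beside 8.27% of all genes called lower. On the scale relative to these markers Adra1d differed between CSA and CFA by -0.80 (two-sided exact permutation p = 0.3) and Adra2a by -0.04 (p = 1), and the groups overlapped for each. The Adra1d difference ranged from -1.30 to -0.44 when a mouse was left out. Adra1a, which was below the added 0.1 FPKM in all 3 CSA mice, differed by -0.68 with overlap (exact permutation p = 0.3), a value that the added 0.1 sets. It ranged from -1.03 to -0.47 when a mouse was left out. No receptor was at 0 in any mouse, and with nothing added, an alternative chosen after the values were seen, the Adra1a difference was -2.56, with all CSA values below all CFA values (exact permutation p = 0.1). The difference of Htr1b was 1.16, with all CSA values above all CFA values, but the groups overlapped with nothing added (1.14, exact permutation p = 0.2) and the difference was 0.51 without CSA 03. The other 4 were also higher without overlap, by 1.99 for Adra1b, 3.37 for Avpr1a, 4.16 for Htr2b and 4.75 for Adrb1, each with p = 0.1, the smallest possible in this exact test. The share of all genes so placed was not computed on this scale. Because the markers subtracted were lower in CSA, a gene with unchanged FPKM would also come out higher. Avpr1a, for example, had a limma log2 fold change of 0.09 in CSA vs CFA. Against Myh11 alone, the smooth muscle myosin heavy chain, with nothing added, the difference was -1.68 for Adra1a, -0.03 for Adra1d and 0.70 for Adra2a, so that the sign for Adra2a depended on the reference. In the saline pair Adra1a was lower relative to the markers in CSS, with a difference of -0.85 and separate groups (exact permutation p = 0.1), and the other 7 overlapped.

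Adra2a was examined beside the endothelium, since its level varied among mice of 1 group. This comparison was added after its values had been seen. CFS 69, the control with 4.66 FPKM of Adra2a, had 38.3 FPKM of Pecam1, an endothelial adhesion molecule, where the other CFS mice had 199 and 188. Vwf, Tek and Cdh5 were also lowest in CFS 69 by a wide margin, but Erg was at 26.7 FPKM there and 30.7 and 32.7 in the others. Among CFA mice the order of Adra2a (3.50, 8.47 and 29.96 FPKM in 72, 71 and 74) was also the order of Pecam1 (75.8, 131 and 187 FPKM), Vwf, Tek and Cdh5, while Kdr and Erg had other orders, with Erg lowest in CFA 74. CSA mice had 29.4-43.5 FPKM of Pecam1 and 0.557-1.53 FPKM of Adra2a. Relative to the mean of the 6 endothelial markers, Adra2a was lower in CSA than in CFA by a difference of -2.33 on the log2 scale, from -4.87 to -3.46 in CSA and from -2.83 to -0.60 in CFA (exact permutation p = 0.1), and it ranged from -2.84 to -1.73 when a mouse was left out. The part of the endothelium in the Adra2a values was not tested. In the saline pair the difference was 0.52 with overlap (exact permutation p = 0.3).

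**Figure D4:**
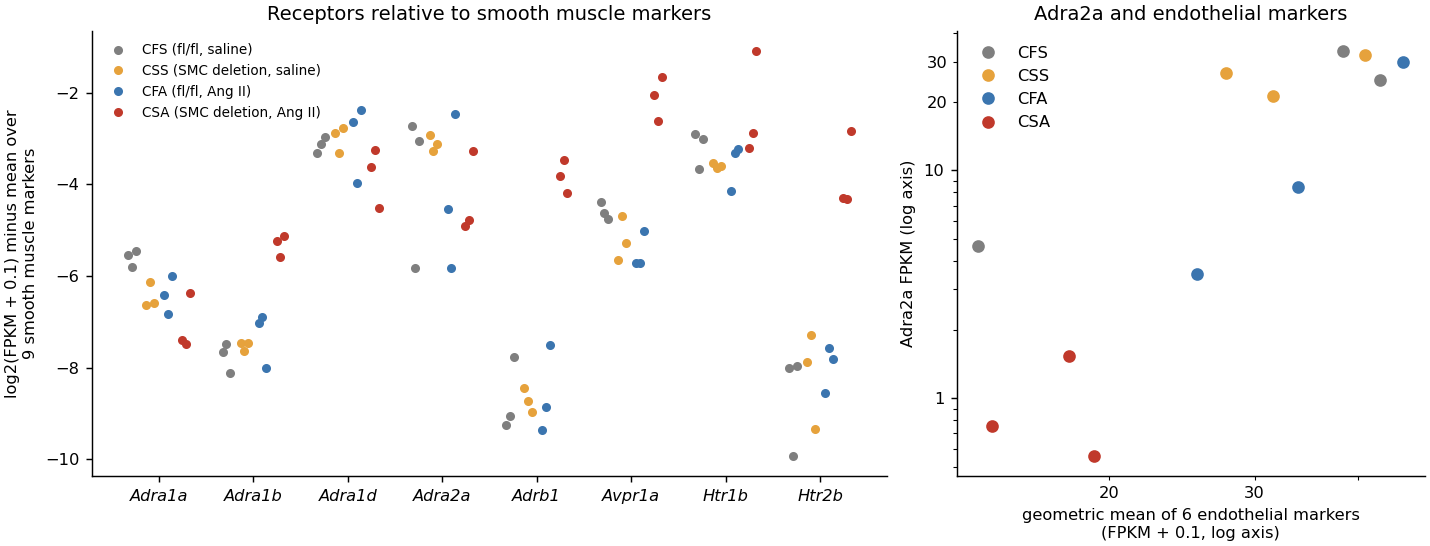
Left, log2(FPKM + 0.1) of each receptor minus the mean of 9 smooth muscle markers, 1 point per mouse. Adra1d and Adra2a of CSA overlap with CFA, and so does Adra1a, whose CSA values are raised by the added 0.1. The other 5 lie above CFA, of which Htr1b overlaps with nothing added. A gene with unchanged FPKM would also lie higher in CSA on this scale. Right, Adra2a FPKM against the geometric mean of 6 endothelial markers (both log axes), where the 3 CSA mice, at 0.557-1.53 FPKM of Adra2a, lie below all other mice on the Adra2a axis.

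The profiles over the 12 libraries were compared as the root mean square (RMS) difference of mean-centred log2(FPKM + 0.1), over 12 libraries that include the CSA group. The most alike pair of receptors was Adra1a with Adra1d, at an RMS difference of 0.728, followed by Adra1b with Avpr1a at 0.766. Among all genes tested, the 3 most like Adra1a were Ntrk3 (RMS 0.298), Lancl3 (0.307) and Col19a1 (0.314). Those most like Adra1d were Aknad1 (0.323), Gm45512 (0.327) and Gm13111 (0.344), and those most like Htr1b were Slmap (0.294), Tmem47 (0.309) and Bves (0.312). Adra2a had no neighbour as near, with Adh7 (0.546), Fam107a (0.567) and Myrip (0.573). The nearest to Adra1b were Col15a1 (0.232), Ergic1 (0.259) and Mical2 (0.285), and to Avpr1a Plekhb1 (0.240), Zbtb21 (0.272) and Phlda1 (0.273). Those nearest to Htr2b were C6 (0.386), Gm16118 (0.391) and Prkch (0.447).

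Of 19 other adrenergic, vasopressin, oxytocin and serotonin receptors, 6 were tested in CSA vs CFA, and 4 were called lower and 1 higher (median -2.20, log2), where 17.2% of all genes were called and 8.27% were called lower. Adrb3, the β3 receptor of fat cells, was lower by -3.52 ± 0.75 (adjusted p = 0.0033), and the adipocyte markers, 2 of 6 called lower, summed to 55.1-95.9 FPKM in CSA against 89.7-258 in CFA. The part of fat around the aorta in the Adrb3 values was not tested. Adra2c, the α2C receptor, differed by -2.99 ± 0.46 (adjusted p = 0.000416) and Oxtr, the oxytocin receptor, by -2.90 ± 0.53 (adjusted p = 0.0012). Htr2a, the 5-HT2A receptor that mediates serotonin contraction in large arteries, was at -1.51 ± 0.36 (adjusted p = 0.0063).

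The receptor called higher was Htr7, which encodes the Gs-coupled 5-HT7 receptor. It was at 0.0675, 0.444 and 0.250 FPKM in CFA and at 2.51, 1.80 and 2.32 in CSA, with a log2 fold change of 2.85 ± 0.55 (adjusted p = 0.0017). Htr7 reached 1 FPKM in CSA mice only and so passed the filter through the group where it was high, which makes its call a description. Leukocyte markers moved with the Htr7 values, 9 of 10 being called higher (median 3.29), beside 17.2% of all genes called in either direction. Cd3e, of this list, reached 1 FPKM in CSA mice only and so also passed the filter through that group. The part of leukocytes in the Htr7 values was not tested. Htr2a and Htr7 were named after their values had been seen. In CSS vs CFS, 0 of the 6 were called.

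Other receptors for constrictors gave a mixed picture, with 4 of 11 tested genes called lower, 0 called higher and a median of -0.74, where 8.27% of all genes were called lower. The ATP-gated channel P2rx1 was at -3.54 ± 0.24 (adjusted p = 1.71e-06), the neuropeptide Y receptor Npy1r at -2.70 ± 0.31 (adjusted p = 5.31e-05) and the angiotensin receptor Agtr1b at -2.50 ± 0.25 (adjusted p = 2.30e-05). P2rx1 and Npy1r answer to ATP and neuropeptide Y, which sympathetic nerves release together with noradrenaline. P2rx1 was at 99.7, 84.9 and 48.6 FPKM in CFA and 6.81, 7.04 and 5.17 in CSA, well apart.

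Downstream of the Gq-coupled receptors, 14 genes of G proteins, phospholipase C, IP3 receptors and protein kinase C were tested, and 2 were called lower and 2 higher, with a median of -0.29, beside 17.2% of all genes called and 8.27% called lower. Plcb4, a phospholipase C isoform that Gq activates, was at -2.19 ± 0.22 (adjusted p = 2.07e-05). Plcb2, the isoform of blood cells, was at 3.11 ± 0.47 (adjusted p = 0.000356) and Prkcb, protein kinase C β, which is also abundant in leukocytes, at 1.90 ± 0.32 (adjusted p = 0.000773). Plcb2 was at 0.216-0.829 FPKM in CFA and 2.66-6.04 in CSA, while the leukocyte gene Ptprc was at 0.9995-2.80 and 17.3-29.5. Plcb2 too reached 1 FPKM in CSA mice only and so passed the filter through the group where it was high, which makes its call a description.

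In the Gs, Gi and cyclic AMP group, 4 of 21 genes were called lower and 0 higher, with a median of -0.95, beside 8.27% of all genes called lower and 17.2% called in all. The adenylyl cyclase Adcy5 was at 127, 128 and 127 FPKM in CFA and 9.56, 15.6 and 5.11 in CSA, a log2 fold change of -3.78 ± 0.32 (adjusted p = 7.33e-06). Adcy9, another cyclase, was at -1.87 ± 0.27 (adjusted p = 0.000237), and Pde3a, which breaks down cyclic AMP in smooth muscle, at -1.85 ± 0.13 (adjusted p = 2.63e-06). Among 7 G protein-coupled receptor kinases and arrestins, 1 was called, a share near the 17.2% of all genes. It was Arrb2, or β-arrestin 2, at 5.18-10.2 FPKM in CFA and 46.1-69.1 in CSA (3.13 ± 0.25, adjusted p = 5.11e-06). Grk2 (0.83 ± 0.15) and Grk5 (-0.67 ± 0.11) did not reach the fold limit.

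Of 16 genes that make, take up or break down the ligands, 8 were tested and 1 was called, a share not above the 17.2% of all genes. It was Maob, the amine oxidase, at -1.53 ± 0.28 (adjusted p = 0.0013). Maob was at 10.7-17.0 FPKM in CFA and 3.18-7.00 in CSA. Dbh, which makes noradrenaline, was listed at 0 in CFA 71 and CFA 72 and at 0.666 FPKM in CFA 74, and was at 1.43, 0.666 and 7.66 in CSA (3.40 ± 1.38, adjusted p = 0.0715), so that CSA 03 stood out. Slc18a2, the vesicular monoamine transporter, was at 1.14 ± 0.54 (adjusted p = 0.115). Slc18a2 reached 1 FPKM in CSA mice only and so passed the filter through that group, which makes its value a description. It was at 0.616-0.868 FPKM in CFA, at 4.19 in CSA 03 and at most 1.20 in the other CSA mice. Avp, the vasopressin gene, was listed at 0 in all libraries but CSA 02, at 0.0817 FPKM. No gene of these 6 lists was called in CSS vs CFS, where 0.0136% of all genes were, and in CFA vs CFS, with 0.0273% of all genes called, the sphingosine-1-phosphate receptor S1pr3 was the 1 called (-1.77 ± 0.18, adjusted p = 0.0171).

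**Figure D5:**
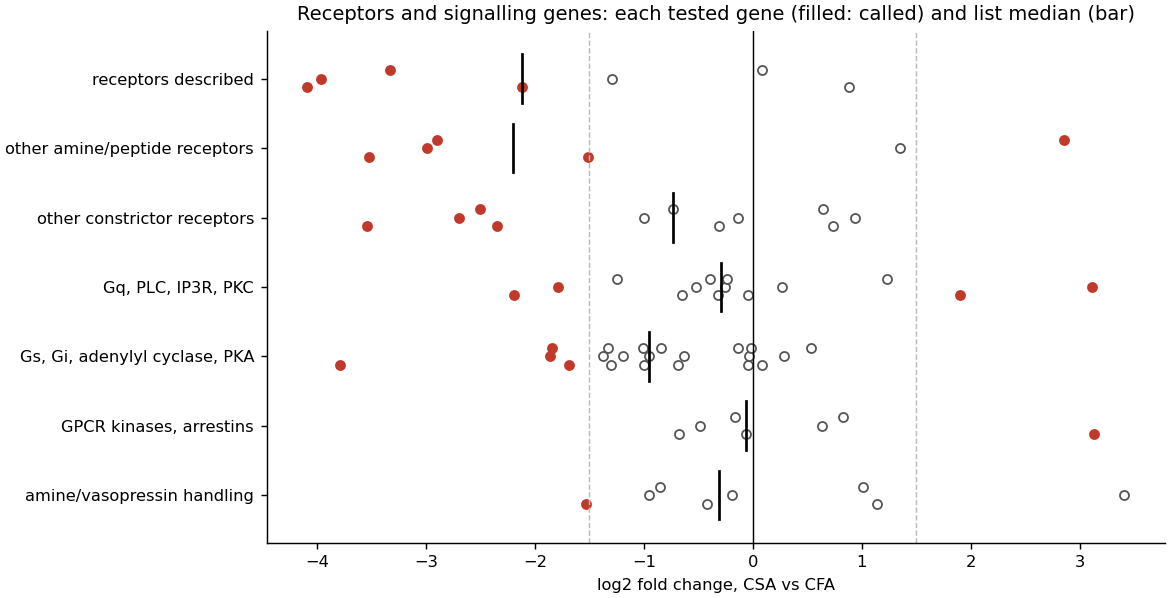
log2 fold change in CSA vs CFA of each tested gene in the receptor set and in 6 lists of related genes. Filled points were called, dashed lines mark the fold limit of 1.5 and the bar is the median of the list. The median is -2.12 for the receptors described, -2.20 for the other receptors of these amines and peptides, and between -0.95 and -0.06 for the other lists.

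The largest changes among the marker lists in CSA vs CFA, as log2 fold changes, were -4.28 for Synpo2, -4.18 for Myh11 and -3.79 for Cnn1 in smooth muscle, and 5.27 for S100a8, 4.81 for S100a9 and 3.73 for Ptprc in leukocytes. They were -2.36 for Vwf, -1.89 for Tek and -1.84 for Pecam1 in endothelium, where Kdr was at 0.92 and was called higher in CSA vs CSS (1.59 ± 0.39, adjusted p = 0.0059), and -3.41 for Lep, -2.88 for Plin1 and -2.17 for Ucp1 in adipocytes, of which Ucp1 was not called (adjusted p = 0.233). Markers of other tissues were low or varied among mice. Of 9 nerve and Schwann cell markers 6 were tested, and Tubb3 alone was called, where 17.2% of all genes were. Tubb3 was higher in CSA (3.05 ± 0.57, adjusted p = 0.0014), with the list summing to 29.2-46.7 FPKM in CFA and 39.0-41.0 in CSA. Uchl1, of the same list, went the other way, at 36.5, 37.9 and 21.1 FPKM in CFA and 11.1, 18.5 and 13.6 in CSA (-1.13 ± 0.28, adjusted p = 0.0083), short of the fold limit. The 7 skeletal muscle markers reached 146 FPKM in 1 CFS mouse and 225 in 1 CSS mouse but at most 4.54 in any Ang II mouse. Of 4 tested, 0 were called in CSA vs CFA, where 17.2% of all genes were. In CSA vs CSS 2 of them, Acta1 and Ckm, were called lower, beside 9.36% of all genes called lower. The 6 adrenal markers summed to 1.34-1.91 FPKM in CFA and 2.30-6.34 in CSA, and Star, the 1 tested, was at 0.25 ± 0.29 (adjusted p = 0.526), while Cyp11b1 was at 0 in all CFA mice. Chga, of the same list, was at 0.0833, 0.0684 and 0.0342 FPKM in CFA and at 0.483, 1.37 and 2.30 in CSA. The part of these tissues in the receptor values was not tested.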

How the data were processed

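RNA-Seq was performed on poly(A) RNA from 12 mouse abdominal aortas, and the deposited FPKM table was used, in which the authors had normalised fragment counts to gene length and library size. The submitters' processing notes name HISAT2 2.0.5, StringTie 1.3.3b, featureCounts 1.5.0-p3 and mm10. Columns were matched to mice by name, and 0 value columns were left unused. Between 98.1% and 98.5% of values below 100 fragments were within 0.05 of a whole fragment at annotated exon lengths, which gave the depth (14558580-23107802 fragments). Adra2a and Adrb1 came out whole only at shorter gene models.

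Genes with at least 1 FPKM in at least 3 libraries were fitted as log2(FPKM + 0.1) with limma 3.58.1 in R 4.3.3 (trend, robust), 1 coefficient per group, and fold changes are on that scale, which understates low genes. P-values were Benjamini-Hochberg adjusted over 14676 genes within a comparison, and a call needed an adjusted p below 0.05 and an absolute log2 fold change over 1.5. On simulated data, 187 of 187 genes tested with an 8-fold change between CSA and CFA were called the right way, and 8 unchanged genes were called. In CSS vs CFS, where no gene was changed, 2 were called. The simulation used the same spread setting for all genes and changed no gene with few fragments. It therefore does not cover low genes, smaller changes or outlying mice. Groups of 3 mice were also compared by exact two-sided permutation, whose smallest p is 0.1. Mice were the replicates.

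The receptors and gene lists were chosen with earlier results of these data known. The genes named are all 8 receptors, the 3 tested genes nearest to each receptor in profile and the 3 tested genes with the largest change in CSA vs CFA in each list reported. Those beyond this rule were named after their values had been seen. Promoter windows came from RefSeq (GRCm38.p6), and gene positions from GENCODE on GRCm38. The alternatives were other pseudocounts (or none, for levels relative to smooth muscle), filters and scalings, plain eBayes, fits of only the groups compared, no fold limit, limma-voom on recovered fragments and leaving out each mouse. A few genes of the lists are not reported here.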

Additional observations from a re-analysis of the deposited data

Results flagged for a closer look

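The effect of the genotype differed between Ang II and saline for 4 receptors, by the interaction term of the limma fit. Of all genes tested, 15.2% were called for this difference and 7.31% were called lower. The difference, genotype effect under Ang II minus that under saline on the log2 scale, was -3.09 for Adra1a, -4.20 for Adra1d, -4.06 for Adra2a and -1.69 for Htr1b. Adra1a and Htr1b are those of the 4 whose saline groups did not overlap, both lower in CSS, beside 9.31% of all genes. The Htr1b difference has the least support, with its call held in 6 of 19 alternatives. Groups of 3 mice were not tested for single outlying samples.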

How the results depend on the processing

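In CSA vs CFA, Adra1a, Adra1d, Adra2a and Htr1b were called in all 20 alternatives, and in CSA vs CSS likewise, with 4 to 5 receptors called. These alternatives were not equal chances to lose a call. Dropping the fold limit could not remove a call, and leaving out a mouse of a group not compared left the fold change as it was. No receptor was called in CSS vs CFS or CFA vs CFS in any alternative. For the difference of the genotype effects, 2 receptors were called with a pseudocount of 1 (Adra1d and Adra2a), and 2 to 4 when a mouse was left out, the fewest without CSS 54, which left Adra1a and Adra1d. Adra2a lost this call with voom (-4.27, adjusted p = 0.0506) and without CSS 54 (adjusted p = 0.0539). Htr1b lost it with a pseudocount of 1 (-1.44), no filter (adjusted p = 0.0737), scaling to library totals (-1.53) and in 10 of 12 fits without a mouse. Scaling to library totals raised CSA against CFA by 0.156 on the log2 scale, as the difference of the mean log2 scaling factors.

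Some signs changed when single mice were left out, among them those of Adra2a, at 0.73 in CSS vs CFS and -0.70 in CFA vs CFS. In CSS vs CFS, Adra1d ranged from -0.0099 to 0.35 (negative without CFS 68 and, at -0.0034, without CSS 56), Adra1b from -0.039 (without CFS 70) to 0.45, Adra2a from -0.14 to 1.27 and Htr2b from -0.11 to 1, both negative without CFS 69. In CFA vs CFS, Adra1b ranged from -0.11 to 0.60 (negative without CFS 70, CFA 71 or CFA 72), Adra1d from -0.37 to 0.29 and Adra2a from -1.57 to 0.016, both positive without CFA 72, and Htr2b from -0.18 (without CFS 69) to 0.65. The Htr2b difference of genotype effects ranged from -0.12 (without CSS 56) to 0.99.

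Relative to smooth muscle markers, the CSA minus CFA difference turned positive for Adra1a with a pseudocount of 1 (1.57) and with Myh11 alone (0.22), for Adra1d with Myh11 alone (0.089), and for Adra2a with a pseudocount of 1 (0.63), with Myh11 alone (0.85, or 0.70 with no pseudocount) and without CFA 74, CSA 01 or CSA 02, ranging from -0.82 to 0.86 when a mouse was left out. In the saline pair the ranges without a mouse were -0.22 to 1.33 for Adra2a, -0.30 to 0.45 for Adrb1, which was 0.11 with Myh11 alone (0.12 with no pseudocount), and -0.19 to 1.04 for Htr2b. Adra1a was below the pseudocount in all CSA mice, and with none, an alternative chosen after the data were seen, it was -2.56, or -1.68 with Myh11 alone. The cause of the other changes was not tested. Htr2b failed the filter without CSA 02, CSA 03 or CSS 55, and Adrb1 in every fit that left out a mouse. No paired analysis was possible because the mouse numbers differ between the groups. Depth limits Adra1a in CSA, at 3-12 fragments, and 3 mice per group limit every interval.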
